A study of Mus musculus with 15 samples.

Results

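The MHC class I antigen presentation genes were followed through 15 RNA-seq libraries of mouse spinal motor neurons. The set of 10 genes was chosen by name for the roles in the pathway, with earlier results of these data known, and all 10 were found among the 36144 genes of the deposited table. It holds 2 classical heavy chains (H2-K1 and H2-D1), their shared light chain (B2m), the peptide transporter (Tap1 and Tap2), its bridging chaperone (Tapbp), 2 catalytic subunits of the immunoproteasome (Psmb8 and Psmb9), the class I transactivator (Nlrc5) and a trimming peptidase of the endoplasmic reticulum (Erap1).

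The neurons were labelled with cholera toxin subunit B, a retrograde tracer, and cut out of lumbar segments L1 to L3 of pups at postnatal day 6 by laser capture. There were 5 groups of 3 biological replicates on an FVB background, and every animal carried the human SMN2 and SMNdelta7 transgenes. WT littermates had both mouse Smn alleles (Smn+/+;SMN2;SMNdelta7) and received vehicle. SMA mice, a model of spinal muscular atrophy, had neither (Smn-/-;SMN2;SMNdelta7) and received vehicle. SMA+MW150 mice had the SMA genotype and received the p38α inhibitor MW150 at 5 mg/kg. SMA+Pifithrin-α mice had the SMA genotype and received the p53 inhibitor Pifithrin-α at 2.2 mg/kg. SMA+SMN-C3 mice had the SMA genotype and were given 3 mg/kg of SMN-C3, which shifts the splicing of SMN2 transcripts. Injections were intraperitoneal, daily, from postnatal day 0. The mouse Smn deletion is present in every cell of the SMA animals, not in motor neurons alone, and no group received a compound without the SMA genotype.

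Class I molecules carry short peptides from the inside of a cell to its surface, where CD8 T cells and natural killer cells read them. The proteasome cuts cytosolic proteins into peptides, the TAP transporter pumps them into the endoplasmic reticulum, tapasin holds an empty class I molecule beside TAP, ERAP1 trims the peptides, and a heavy chain leaves for the surface only once it holds both beta-2 microglobulin and a peptide. Neurons at rest express the pathway weakly, and interferons raise it through the transactivator NLRC5 and factors of the IRF, STAT and NF-kB families. Tap1 is also among the genes reported as targets of p53. In the spinal cord, motor neurons are known for class I expression after axon injury, and the receptor PirB and class I molecules have been studied for their part in synapse removal.

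Interferon and NF-kB act on these genes through short sequences close to the start sites, so the promoter stretches of the heavy chains and of B2m are shown first. A window of 300 bases per gene start was taken from RefSeq on GRCm38.p6, from 250 bases before the start to 50 after it, and 8 of the 10 genes had one. Tap2 and Nlrc5 had none. Motifs were searched on both strands: GGGATTCCC (an NF-kB-type element, part of enhancer A in class I promoters), TTTCNNTT (the core of an interferon-stimulated response element) with its longer form TTTCNNTTT, which contains it, TGACG (a half-site of CREB and ATF factors) and ATTGG (the reverse of a CCAAT box, bound by NF-Y). In the stretches below the capitals mark matches to these motifs, and each stretch is written 5′ to 3′ on the strand of its gene.

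The stretch of H2-K1 (chr17:34000348-34000458, minus strand) ends at the base before the start site and touches no annotated exon, and that of B2m (chr2:122147542-122147684, plus strand) likewise lies upstream of every exon.
H2-K1: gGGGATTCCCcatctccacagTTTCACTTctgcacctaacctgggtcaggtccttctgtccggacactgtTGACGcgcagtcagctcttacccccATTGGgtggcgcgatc
B2m: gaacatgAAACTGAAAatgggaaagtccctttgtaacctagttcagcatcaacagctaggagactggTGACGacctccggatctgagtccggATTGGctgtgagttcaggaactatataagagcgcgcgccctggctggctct
Read from the left, H2-K1 has the NF-kB-type element, the interferon core, the CREB half-site and the CCAAT box in reverse, and B2m has the last 3 in the same order. H2-D1 has all 4 in the order of H2-K1. The 30 bases from 1 base before the NF-kB-type element (chr17:35262923-35262952, plus strand), which fall inside an annotated exon, are identical to those of H2-K1 at 29 of 30 positions. The difference is A18T, counted from 1 at the 5′ end of the stretch, with the base of H2-K1 first.
H2-K1: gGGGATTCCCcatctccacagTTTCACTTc
H2-D1: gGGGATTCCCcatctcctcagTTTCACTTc
The NF-kB-type element is rare, occurring in 116 of 32851 promoter windows of the genome (0.353%), while TTTCNNTT occurs in 23.9%, TTTCNNTTT in 10.6%, TGACG in 20.8% and ATTGG in 37.4% of them.

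Tap1 and Psmb9 are read away from each other from start sites 226 bases apart, so their windows share 275 bases and the same single TGACG. It is shown in 30 bases on the strand of Tap1 (chr17:34187458-34187487), which fall inside an exon of a Psmb9 transcript. Erap1 has the long interferon form across its start site, shown in 30 bases (chr13:74639839-74639868, plus strand).
Tap1: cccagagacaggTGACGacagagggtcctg
Erap1: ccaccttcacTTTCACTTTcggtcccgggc
The Tap1, Psmb9, Tapbp and Psmb8 windows held no match to the NF-kB-type element or to the interferon core in these letters. A match describes letters in a window, and no match says nothing of what binds there.

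Levels are given as TPM (transcripts-per-million values), a measure corrected for transcript length that sums to 1000000 in each library, and the tables carry no read counts. Smn1 stood at 8.97 to 23.3 TPM in the WT libraries and at 0 to 1.498 TPM in the other 12, as the genotype labels say. The motor neuron markers were abundant in every group: 14 genes, among them Chat, Isl1, Mnx1 and Prph, summed to between 11710 and 21677 TPM. Mitochondrially encoded genes took 21.9% of TPM in WT 1, 20.4% in SMA+Pifithrin-α 3 and 3.76% to 12.6% in the other libraries, which lowers all other genes where the share is high. The median log2 change of all genes tested was 0.24 between WT and SMA. Relative to SMA it was 0.06 for MW150, -0.22 for Pifithrin-α and -0.23 for SMN-C3, and relative to WT it was 0.31 for MW150. Median-of-ratios scaling brought these to 0.04, -0.01, -0.02, 0.00 and 0.04, so member changes are to be read relative to them.

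The first comparison asks whether motor neurons of SMA mice carry more class I transcripts than those of WT littermates. Tap1 rose from at most 1.31 TPM in WT to 8.83 to 21.9 TPM in SMA, and it was the 1 gene of the 10 that was called. Tap2 and Psmb9 lay above WT in each SMA library without passing the test, while the abundant products, H2-D1, B2m, H2-K1 and Tapbp, overlapped between the groups. Calls rest on limma's moderated test of log2(TPM + 1) over 15425 genes, with a threshold of 0.05 on the Benjamini-Hochberg adjusted p, and 0.363% of all genes passed it in this comparison. Groups did not overlap, with SMA higher, for 3 of the 10 genes and for 14.5% of all genes tested. The median log2 change of the 10 was 0.57. All 10 estimates were above 0, as were 66.5% of all genes, except that H2-D1 and Tapbp turned to -0.29 and -0.05 when the fit carried a term for the mitochondrial share, and H2-D1 to -0.05 without SMA 1. In bulk samples such as these, fewer cells of a type and less RNA per cell cannot be told apart.

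**Figure D1:**
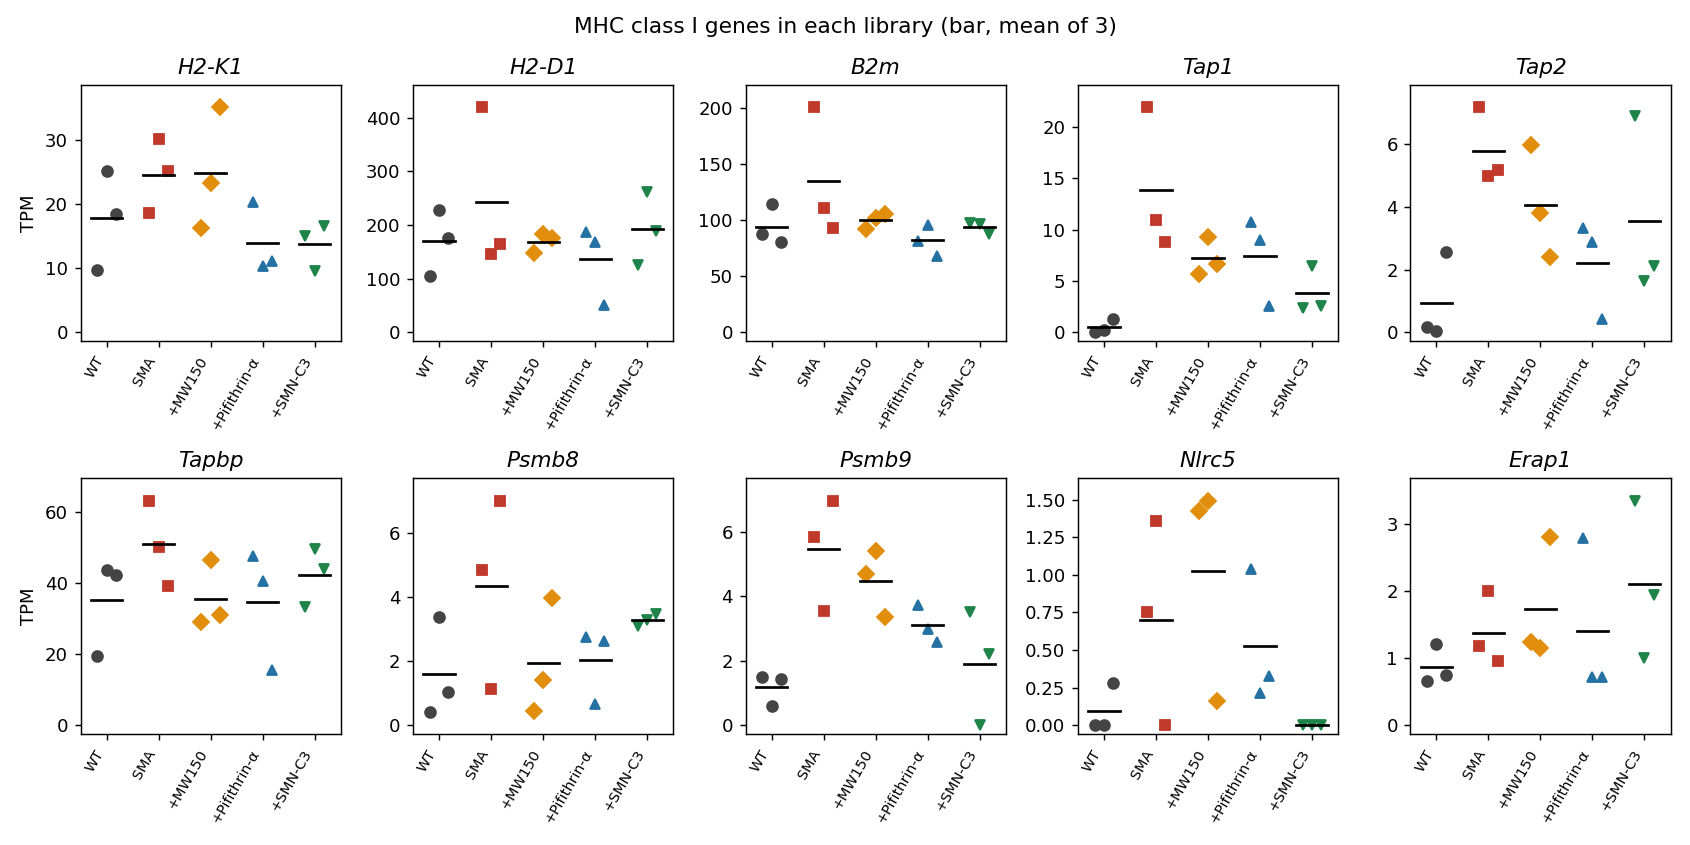
TPM of the 10 class I genes (vertical axes, linear, each with its own range) in the 15 libraries by group (horizontal axis); points are libraries and bars are means of 3. Tap1 lies at 0 to 1.31 TPM in WT, against 8.83 to 21.9 TPM in SMA, while H2-K1, H2-D1, B2m and Tapbp overlap between those groups.

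The heavy chains present the peptide. H2-D1 (ENSMUSG00000073411.11, chr17:35262730-35267499, plus strand, GRCm38) was the most abundant of the 10, at 104, 229 and 175 TPM in WT, against 419, 146 and 165 TPM in SMA. A single library, SMA 1, lay above all WT libraries and the other two SMA libraries lay inside the WT range. The log2 change was 0.42 (SE 0.47, adjusted p 0.66) and was -0.05 without SMA 1. H2-D1 stood at 147, 183 and 175 TPM with MW150, at 187, 169 and 51.4 TPM with Pifithrin-α and at 125, 262 and 188 TPM with SMN-C3. The lowest value is that of SMA+Pifithrin-α 3, the library with a mitochondrial share of 20.4%. By group mean the order from low to high was Pifithrin-α, MW150, WT, SMN-C3 and SMA, and each group overlapped the next.

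H2-K1 (ENSMUSG00000061232.16, chr17:33996017-34000347, minus strand) was lower, at 9.80, 25.1 and 18.4 TPM in WT, against 18.6, 30.2 and 25.1 TPM in SMA. The SMA libraries were inside or above the WT range, and H2-K1 differed by 0.51 (log2, SE 0.39, adjusted p 0.52). It stood at 16.2, 23.3 and 35.1 TPM with MW150, at 20.4, 10.4 and 11.1 TPM with Pifithrin-α and at 15.04, 9.62 and 16.6 TPM with SMN-C3. All SMN-C3 libraries lay below all SMA libraries, but the change from SMA of -0.80 (SE 0.39, adjusted p 0.59) was not called. The 2 heavy chains did not move together from library to library: TPM of H2-D1 divided by TPM of H2-K1 ranged from 4.62 in SMA+Pifithrin-α 3 to 27.2 in SMA+SMN-C3 2, and within SMA from 4.84 to 22.6. Pearson's r of their log2 values was 0.29 over the 15 libraries, which share the 5 groups and the scaling to a fixed total.

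Values of the 2 heavy chains carry several limits, some of which other members share. The 31-base words that occur in no other gene make up 78.3% of the main protein-coding transcript of H2-K1 and 72.3% of that of H2-D1, and each shares more words with the other than with any other gene. FVB mice carry another class I haplotype than the C57BL/6 genome behind the reference annotation, and the effect of that on read assignment was not tested. Retained-intron transcripts took 41.9% of the TPM of H2-K1 and 0.51% of that of H2-D1. Among other members, Tapbp had 76.1% of words in no other gene. Retained-intron transcripts took 74.5% of the TPM of Tap2 and 51.5% of that of Psmb8.

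B2m (ENSMUSG00000060802.8, chr2:122147686-122153083, plus strand) encodes the light chain without which a heavy chain does not fold stably, and it lies inside the body of Patl2 on the other strand. It stood at 87.5, 114 and 81.0 TPM in WT, against 201, 111 and 93.0 TPM in SMA. Again SMA 1 was the highest library and the other two overlapped WT, and the log2 change of 0.45 (SE 0.27, adjusted p 0.44) was not called. In the treated groups it stood at 92.0, 102 and 106 TPM with MW150, at 81.9, 95.5 and 68.4 TPM with Pifithrin-α and at 97.4, 97.1 and 87.7 TPM with SMN-C3. The WT and SMN-C3 means were 94.3 ± 17.7 and 94.0 ± 5.51 TPM (SD, n = 3). All 31-base words of its transcript occur in no other gene.

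The TAP transporter is a pair of Tap1 and Tap2. Tap1 (ENSMUSG00000037321.17, chr17:34187553-34197225, plus strand) had a listed value of 0 in WT 1, and the other WT libraries held 0.197 and 1.31 TPM. The SMA libraries held 21.9, 10.98 and 8.83 TPM. The lowest SMA library was above the highest WT library by a wide margin. On the log2(TPM + 1) scale, which understates the change of low genes, Tap1 was higher by 3.31 (SE 0.50, adjusted p 0.0041), a ratio of 9.91 on that scale. The call held in each of 6 fits that left out 1 SMA or WT library (3.31 became 2.95 to 3.67, adjusted p 0.0046 to 0.049) and in the 11 other settings tried (2.69 to 5.22, adjusted p 8.2e-04 to 0.042).

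With treatment Tap1 lay between WT and SMA. It stood at 5.64, 9.25 and 6.69 TPM with MW150, at 10.8, 8.95 and 2.56 TPM with Pifithrin-α and at 2.36, 6.48 and 2.58 TPM with SMN-C3. Each of the 9 treated libraries exceeded every WT library, and no SMN-C3 library reached the lowest SMA value. By group mean the order was WT, SMN-C3, MW150, Pifithrin-α and SMA, and only the step from WT to SMN-C3 separated neighbouring groups without overlap. Of its TPM, 96.9% came from protein-coding transcripts. On protein-coding transcripts alone the change from WT to SMA was 3.32 (adjusted p 0.0024). In the moderated F test of limma over the 5 groups Tap1 was the 1 member called (adjusted p 0.038), beside 0.22% of all genes. Leaving out single libraries ended that call in 11 of 15 fits.

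Tap2 (ENSMUSG00000024339.12, chr17:34203527-34216321, plus strand), the partner of Tap1, stood at 0.171, 0.038 and 2.56 TPM in WT, against 7.18, 5.00 and 5.17 TPM in SMA. All SMA libraries lay above all WT libraries, but the difference of 2.04 (log2, SE 0.55, adjusted p 0.16) did not pass. Under treatment Tap2 stood at 5.97, 3.81 and 2.41 TPM with MW150, at 3.31, 2.87 and 0.430 TPM with Pifithrin-α and at 6.91, 1.64 and 2.12 TPM with SMN-C3. The Pifithrin-α libraries were all below the SMA libraries and overlapped WT. A limit goes with these values: 74.5% of Tap2 TPM was given to 1 retained-intron transcript. Protein-coding transcripts alone came to 0, 0 and 0.372 TPM in WT and to 1.57, 0.714 and 1.81 TPM in SMA, which again did not overlap. The gene also overlaps 2 genes on the other strand, Gm20496 and Gm15821, and whether counting used strand is not given in the sources used here.

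Tapbp (ENSMUSG00000024308.15, chr17:33915899-33929292, plus strand) encodes tapasin, the bridge between TAP and the heavy chain. It stood at 19.6, 43.8 and 42.3 TPM in WT, against 63.2, 50.3 and 39.3 TPM in SMA. The groups overlapped, with a log2 change of 0.58 (SE 0.40, adjusted p 0.48). The treated libraries ranged from 15.5 TPM in SMA+Pifithrin-α 3 to 49.5 TPM in SMA+SMN-C3 2. Tapbp followed H2-D1 across libraries (r 0.88 over 15), which was the closest pair among the 10, and H2-D1 and B2m came next (r 0.75). SMA 1 was the highest and SMA+Pifithrin-α 3 the lowest library for all 3 of these genes. After median-of-ratios scaling SMA 1 was still the highest for all 3, while the lowest became SMA+Pifithrin-α 3 for H2-D1 (81.6), SMA+Pifithrin-α 1 for B2m (65.9) and SMA+MW150 1 for Tapbp (23.9, in scaled TPM).

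The immunoproteasome replaces the catalytic subunits of the standard proteasome and cuts peptides that fit class I grooves. Psmb9 (ENSMUSG00000096727.3, chr17:34181987-34187764, minus strand) stood at 1.51, 0.593 and 1.44 TPM in WT, against 5.85, 3.55 and 6.96 TPM in SMA. All SMA libraries lay above all WT libraries, with a log2 change of 1.56 (SE 0.47, adjusted p 0.21) that was not called. It stood at 4.69, 5.40 and 3.37 TPM with MW150 and at 3.73, 3.00 and 2.59 TPM with Pifithrin-α, all above WT. With SMN-C3 it stood at 3.50 and 2.22 TPM and was listed at 0 in replicate 2, all below SMA. After median-of-ratios scaling SMN-C3 1 (3.86 scaled TPM) lay above SMA 2 (3.10). By group mean the order was WT, SMN-C3, Pifithrin-α, MW150 and SMA, each group overlapping the next. Psmb9 and Tap1 overlap by 212 bases on opposite strands (chr17:34187553-34187764), and 182 of the 31-base words of the main Psmb9 transcript are shared with Tap1, so a part of the reads of either can be assigned to the other.

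Psmb8 (ENSMUSG00000024338.15, chr17:34197721-34201454, plus strand) lies between Tap1 and Tap2. It stood at 0.427, 3.39 and 1.05 TPM in WT, against 4.86, 1.15 and 7.02 TPM in SMA. The groups overlapped, and Psmb8 differed by 0.99 (log2, SE 0.56, adjusted p 0.42). The SMN-C3 libraries were close together at 3.12, 3.29 and 3.47 TPM, while those of MW150 stood at 0.467, 1.43 and 3.98 TPM and those of Pifithrin-α at 2.77, 0.683 and 2.65 TPM. Retained-intron transcripts took 51.5% of Psmb8 TPM.

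Erap1 (ENSMUSG00000021583.7, chr13:74639568-74693201, plus strand) was low and overlapped between all neighbouring groups, at 0.668, 1.20 and 0.749 TPM in WT, against 1.19, 2.003 and 0.953 TPM in SMA (log2 change 0.33, SE 0.41, adjusted p 0.69). Across the treated libraries it ranged from 0.715 TPM with Pifithrin-α to 3.34 TPM with SMN-C3. Nlrc5 (ENSMUSG00000074151.13, chr8:94434356-94527272, plus strand), the transactivator that docks on the promoters of the heavy chains, B2m and Tap1, was the lowest of the 10. It reached 1 TPM in 4 of 15 libraries and was listed at 0 in 6. Of the WT libraries 2 were at 0 and WT 3 held 0.283 TPM. In SMA it stood at 0.750, 1.36 and 0 TPM, with MW150 at 1.42, 1.49 and 0.165 TPM and with Pifithrin-α at 1.04, 0.212 and 0.329 TPM, and it was listed at 0 in all SMN-C3 libraries. The log2 change from WT to SMA was 0.56 (SE 0.39, adjusted p 0.49), and at this level little can be read from it.

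The next comparisons ask whether each compound moved the genes away from their SMA level. They share the 3 SMA libraries, so a library such as SMA 1 enters all of them. With MW150, 0 of the 10 were called by limma, 0 had an unadjusted p under 0.05 (1.9% of all genes), and 0 lay outside the SMA range on either side. Over all genes 0.00648% were called and 10.9% did not overlap SMA, with 3.41% below it and 7.53% above it. The median log2 change of the 10 was -0.36, and 2 estimates were above 0 (57.9% of all genes) and 8 below it, except that H2-K1 turned to 0.02 under the mitochondrial term and to at most 0.24 when single libraries were left out, and H2-D1 to 0.11 without SMA 1. The estimates ran from -0.84 for Psmb8 (SE 0.56, adjusted p 1) and -0.79 for Tap1 (SE 0.50, adjusted p 1) to 0.26 for Nlrc5 (SE 0.39, adjusted p 1).

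With Pifithrin-α, 0 of the 10 were called by limma, beside 0.00648% of all genes. At an unadjusted p under 0.05, 2 were lower, B2m and Tap2, beside 7.55% of all genes. Tap2 alone lay below SMA in every library (log2 change -1.22, SE 0.55, adjusted p 0.46), beside 9.76% of all genes. All 10 estimates were below 0, as were most genes, of which 34.4% were above it. Exceptions were Erap1 under 4 settings (0.05 to 0.17) and when single libraries were left out (up to 0.12), Nlrc5 at a pseudocount of 0.1 TPM (0.10), under the mitochondrial term (0.03) and when single libraries were left out (up to 0.17), and Tapbp under the same mitochondrial term (0.02). The median was -0.69. B2m was lower by 0.64 (SE 0.27), H2-D1 by 0.87 (SE 0.47), H2-K1 by 0.81 (SE 0.39) and Tap1 by 0.90 (SE 0.50), with adjusted p between 0.46 and 0.48. With array weights, which give less weight to libraries that fit the model poorly, H2-K1 (-1.09, adjusted p 0.024) and Psmb8 (-1.46, adjusted p 0.049) were called lower, but under that setting 10.2% of all genes were called.

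With SMN-C3, the compound that acts on SMN2 itself, 0 of the 10 were called by limma, beside 0.0648% of all genes. At an unadjusted p under 0.05, 2 were lower, Tap1 (-1.63, SE 0.50, p 0.0047, adjusted p 0.33) and Psmb9 (-1.37, SE 0.47, p 0.0095, adjusted p 0.42), beside 7.94% of all genes. These genes and H2-K1 lay below SMA in all 3 SMN-C3 libraries, which makes 3 of 10 beside 18.2% of all genes. After median-of-ratios scaling Psmb9 and H2-K1 overlapped SMA. Tap1 was called lower with array weights (-1.61, adjusted p 0.044), a setting that called 1.5% of all genes here. The median of the 10 was -0.56, and 9 were below 0 (26.6% of all genes were above it). H2-D1, Tapbp and Psmb8 were near the median of all genes (-0.24, -0.25 and -0.12), and with median-of-ratios scaling they turned to 0.03, 0.01 and 0.08; without SMA 1, H2-D1 turned to 0.24. Erap1 was the 1 estimate above 0 (0.33, SE 0.41, adjusted p 0.87). Differences between the compounds were not tested.

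**Figure D2:**
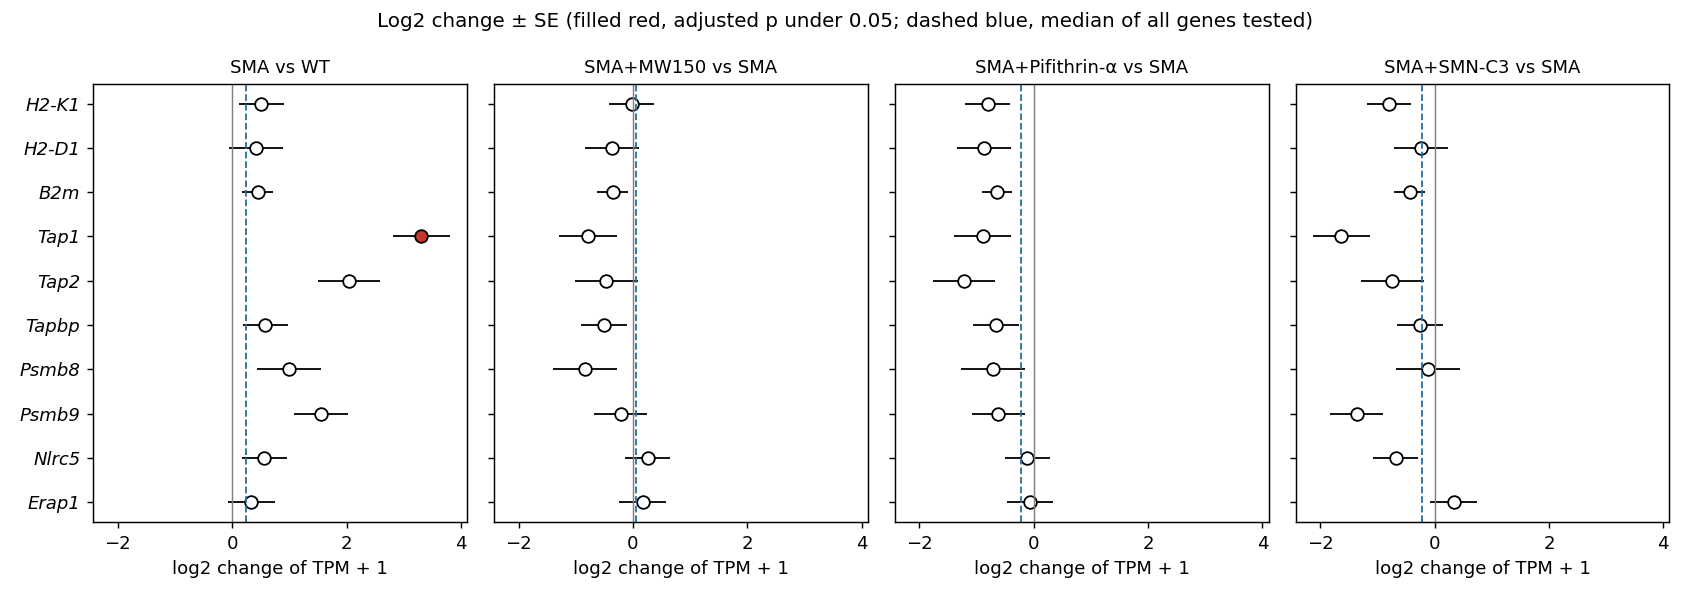
Log2 change of TPM + 1 (horizontal axis) with its SE for the 10 class I genes (rows) in SMA against WT and in each treated group against SMA (panels); red points have an adjusted p under 0.05 and the dashed line is the median of all genes tested. Tap1 in SMA against WT (3.31) is the only red point, and its change with SMN-C3 is -1.63.

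Against WT, the treated groups share the WT libraries, and 0 of the 10 were called by limma in each. Called genes made up 0.143% of all genes with MW150, 0.117% with Pifithrin-α and 0.0194% with SMN-C3. Tap1 remained above every WT library in all 3 groups, with log2 changes of 2.52 with MW150 (SE 0.50, adjusted p 0.061), 2.41 with Pifithrin-α (SE 0.50, adjusted p 0.12) and 1.67 with SMN-C3 (SE 0.50, adjusted p 0.59). It crossed the threshold with MW150 under 5 of 11 settings and with Pifithrin-α under 4 of 11, and without WT 3 (adjusted p 0.048) and without SMA+Pifithrin-α 3 (0.018) respectively. It crossed it with SMN-C3 under none of the 11. Psmb9 did not overlap WT with MW150 (1.34, SE 0.47, adjusted p 0.43) or with Pifithrin-α (0.93, SE 0.47, adjusted p 0.88), and overlapped it with SMN-C3 (0.19). Members above WT without overlap were thus 2 with MW150, 2 with Pifithrin-α and 1 with SMN-C3, beside 17.9%, 4.79% and 4.03% of all genes. At an unadjusted p under 0.05, 3 members were higher with MW150 (Tap1, Tap2 and Psmb9), 1 with Pifithrin-α (Tap1) and 2 with SMN-C3 (Tap1 and Tap2), beside 9.56%, 4.11% and 2.23% of all genes. Tap2 was higher than WT by 1.57 with MW150 (SE 0.55, adjusted p 0.43), by 0.82 with Pifithrin-α (SE 0.55, adjusted p 0.96) and by 1.30 with SMN-C3 (SE 0.55, adjusted p 0.67).

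Other genes of the pathway were read from lists drawn up by function. No gene of the 9 lists was called in any of the 7 comparisons. Of 22 other class I and class I-like genes, 12 were tested; in SMA against WT 9 were above 0 and the median was 0.29. By mean TPM over all 15 libraries, the measure of abundance for each list, the most abundant were H2-T10 (14.5 ± 5.11 TPM in WT against 19.6 ± 0.617 TPM in SMA, SD, n = 3), the lipid-presenting Cd1d1 (24.1 ± 3.40 and 12.8 ± 4.33 TPM) and H2-T23 (2.59 ± 2.50 and 5.75 ± 3.70 TPM), none of which was called (adjusted p 0.45, 0.27 and 0.52). H2-T23 owes its place to SMA+Pifithrin-α 3, at 35.4 TPM, and Fcgrt was higher than it in both WT and SMA (6.57 ± 3.21 and 10.2 ± 6.48 TPM). The folding chaperones of the endoplasmic reticulum, 9 of 9 tested, had a median of 0.22. Calr stood at 374 ± 54.1 TPM in WT against 383 ± 44.9 TPM in SMA, and Hspa5 and Pdia3 had log2 changes of -0.06 and -0.18.

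The proteasome list, 9 of 9 tested, had a median of 0.49 with 8 above 0. Its most abundant genes were the standard catalytic subunits: Psmb6 at 913 ± 338 TPM in WT against 1223 ± 130 TPM in SMA, Psmb5 at 558 ± 209 and 681 ± 62.1 TPM, and Psmb7 at 251.5 ± 95.8 and 334 ± 26.4 TPM. In no library did Psmb8 or Psmb9 exceed 7.02 TPM, far below the standard subunits. This does not hold for every immunoproteasome subunit. Psmb10, another such subunit and part of this list, stood at 38.7, 149 and 125 TPM in WT. In SMA it stood at 186, 184 and 163 TPM, and it was not called. Of 8 peptidases, 7 were tested, with a median of 0.17; Blmh, Npepps and Tpp2 led by level, and their changes were 0.67, -0.08 and -0.20 (adjusted p 0.36, 0.92 and 0.72).

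Regulators were measurable without being called. Of 18 transcription factors that act on class I genes, 17 were tested, with a median of 0.55 in SMA against WT and 13 above 0. The most abundant were Rfxap (log2 change 0.55, adjusted p 0.40), Nfyc (0.28, 0.72) and Irf3 (0.25, 0.79). All 9 interferon receptor and kinase genes were tested, with a median of 0.42; the interferon-gamma receptor chain Ifngr2 stood at 77.2 ± 23.2 TPM in WT against 119 ± 33.2 TPM in SMA, Jak1 at 102 ± 26.6 and 86.7 ± 24.2 TPM, and Ifnar2 at 20.9 ± 5.95 and 30.7 ± 4.32 TPM. Transcripts of receptors for both types of interferon were thus detected in the captured material.

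Interferon-induced genes were mostly low: 12 of 24 were tested. In SMA against WT all 12 estimates were above 0, with a median of 0.96, 0 called by limma and 6 higher at an unadjusted p under 0.05, beside 10.6% of all genes; 4 of the 12 did not overlap WT, beside 14.5% of all genes. The most abundant were Ifi27 (118 ± 56.7 TPM in WT against 234 ± 108 TPM in SMA, adjusted p 0.33), Xaf1 (9.82 ± 4.87 and 17.9 ± 10.6 TPM, adjusted p 0.46) and Ifi35 (2.53 ± 1.23 and 16.7 ± 12.3 TPM, adjusted p 0.15). The medians of the 12 against SMA were -0.45 with MW150, -1.06 with Pifithrin-α and -1.14 with SMN-C3, again with 0 called. At an unadjusted p under 0.05, 2, 7 and 6 of the 12 were lower, beside 0.389%, 7.55% and 7.94% of all genes. Receptors that read class I, such as Pirb and Cd8a, were at the edge of the data: 0 of 7 were tested, and Pirb averaged 0.193 TPM over all libraries. Of 7 class II genes 5 were tested, with a median of 0.83 in SMA against WT and 0 called by limma (1 higher at an unadjusted p under 0.05); H2-DMa led at 27.0 ± 6.399 TPM in WT against 27.2 ± 9.09 TPM in SMA, followed by H2-Ab1 (5.18 ± 4.54 and 14.3 ± 11.5 TPM) and H2-Eb1 (3.26 ± 3.00 and 5.44 ± 3.19 TPM).

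Markers of cells that lie beside motor neurons moved with the groups too. The 15 microglia markers summed to 80.6 to 118 TPM in WT, 214 to 259 TPM in SMA, 156 to 219 TPM with MW150, 90.9 to 166 TPM with Pifithrin-α and 105 to 143 TPM with SMN-C3. In SMA against WT the estimates of all 14 tested microglia markers were above 0 (66.5% of all genes), 10 of 14 lay above WT without overlap (14.5% of all genes), and 1 was called (0.363% of all genes), the complement gene C1qc (1.86, adjusted p 0.014). No microglia marker was at 0 in all libraries of a group. Microglia express class I genes, and the part of their RNA in the member changes was not tested.

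The 11 astrocyte markers summed to 781 to 1536 TPM in WT against 1419 to 1978 TPM in SMA, the 12 of the oligodendrocyte lineage to 757 to 2293 and 954 to 4694 TPM, the 4 Schwann cell markers to 40.2 to 45.5 and 62.9 to 239 TPM, and the 5 of red blood cells to 677 to 2261 and 788 to 3548 TPM. Vascular markers, which include endothelial genes, summed to 96.1 to 123 TPM in WT against 149 to 191 TPM in SMA, though their median change was -0.01. Interneuron markers summed to 26.0 to 56.6 and 23.8 to 41.8 TPM. Their parts in the member changes were not tested. Lymphocyte markers were at the bottom of the range: the 9 genes summed to 0.16 to 5.63 TPM over all libraries, and 0 were tested. The highest sum, 5.63 TPM, was that of SMA 3, with Cd3e at 2.28 TPM and Ms4a1 at 1.43 TPM. Nkg7 was listed at 0 in all WT and SMA libraries.

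Among all genes tested, those whose log2 levels followed Tap1 most closely over the 15 libraries were Robo3, an axon guidance receptor (Pearson's r 0.95), Crip2 (0.94), Nme4 (0.93), Dcxr (0.93) and Klhl8 (0.93). Cdkn1a (p21, an inhibitor of the cell cycle under p53 control) ranked 7 of 15415 (r 0.92), and C1qc ranked 709 (r 0.71). Part of such likeness is the difference between groups that these libraries share. Once each group's mean was subtracted, r with Tap1 was 0.68 for Cdkn1a, 0.10 for C1qc, 0.87 for Robo3 and 0.91 for Nme4. C1qc is 1 of the 15 microglia markers, and the others were not set against Tap1 in this way. Cdkn1a stood at 42.7 ± 6.09 TPM in WT, 1054 ± 427 in SMA, 871 ± 258 with MW150, 473 ± 260 with Pifithrin-α and 318 ± 5.45 with SMN-C3 (SD, n = 3). Within SMA the library highest in Tap1, SMA 1, was also the highest in Cdkn1a (1430 TPM). It was not the highest in summed microglia markers (214 TPM, against 259 in SMA 2). Other groups went the other way for Cdkn1a. With MW150 the library highest in Cdkn1a, SMA+MW150 1 (1115 TPM), was the lowest in Tap1 (5.64 TPM). Its summed microglia markers were the highest of that group (219 TPM). With SMN-C3 the library lowest in Cdkn1a, SMA+SMN-C3 2 (313 TPM), was the highest in Tap1 (6.48 TPM). It was also the highest of that group in summed microglia markers (143 TPM). With Pifithrin-α the library lowest in Tap1 was also the lowest in Cdkn1a (194 TPM) and in summed microglia markers (90.9 TPM). That library was SMA+Pifithrin-α 3, with a median-of-ratios size factor of 0.63 and a mitochondrial share of 20.4%. The part of that share in these low values was not tested. What lies behind these likenesses was not tested.

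**Figure D3:**
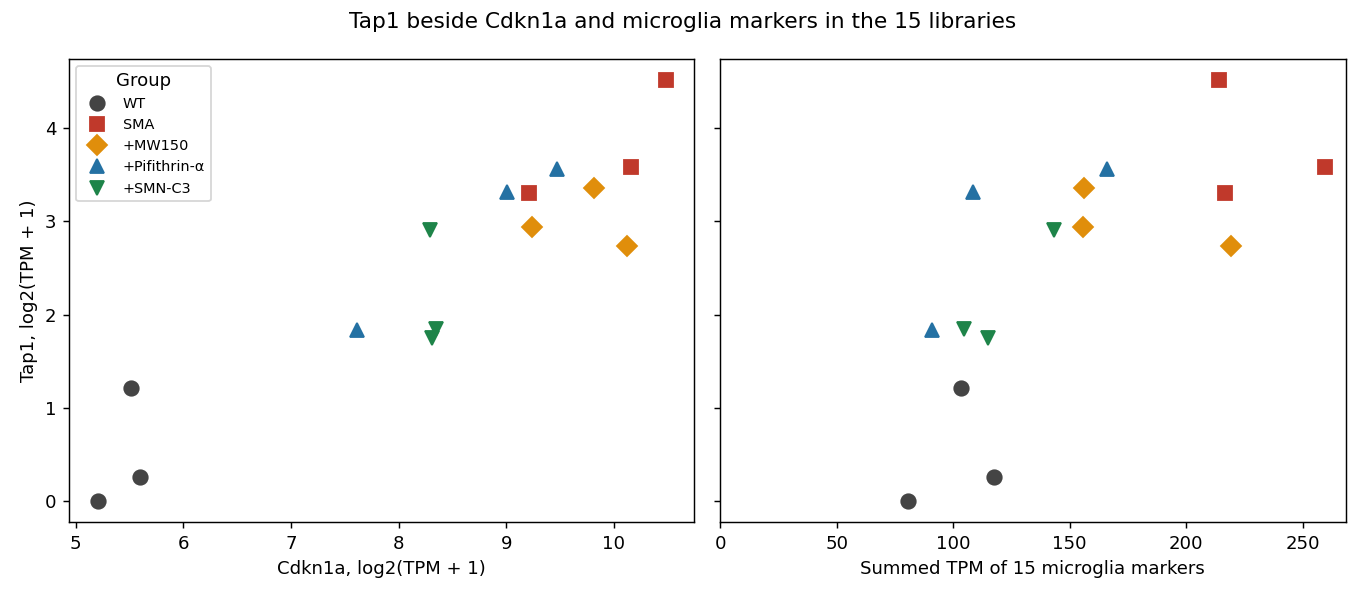
Tap1 as log2(TPM + 1) (vertical axes) against Cdkn1a on the same scale (left) and against the summed TPM of 15 microglia markers (right); each point is 1 of 15 libraries, coloured by group. WT libraries lie at the lower left of the Cdkn1a panel and SMA libraries toward the upper right; in the microglia panel WT libraries lie at 80.6 to 118 TPM, SMA libraries at 214 to 259 TPM and treated libraries at 90.9 to 219 TPM.

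B2m and H2-K1 had other neighbours, and those of Tap2 were not listed. Tap2 was the member most like Tap1 (r 0.74), followed by Psmb9 (0.58) and Nlrc5 (0.56). For B2m the closest genes outside the pathway were Arhgap25 (0.87), the lysosomal protease Ctsl (0.85), Smim1 (0.84), the chemokine Cxcl3 (0.84) and Stmn1 (0.83). Cxcl3 was low, at a mean of 0.698 TPM. For H2-K1 the closest genes included Akna (mean 0.816 TPM), Tspan15 and Sfrp2 (r 0.92 each) and Foxf2 (r 0.89, mean 0.773 TPM). These are correlations over 15 libraries picked from 15415 genes, so high values are found by the choice itself, and they say nothing of shared control.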

How the data were processed

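The authors deposited TPM (transcripts-per-million values) by gene and by transcript, 1 column for each of 15 libraries, with every column summing to 1000000. The values came from kallisto 0.44.0 with GRCm38.p6 and mm10 as builds, per the submitters' processing notes. Libraries were low-input, poly(A)-selected and sequenced as paired ends of 100 bases, per the labels' protocols. The annotation release is not given in the sources used here. It was inferred from GENCODE M21 (GRCm38), which held 98.59% of the 118489 transcripts, and coordinates come from it. TPM holds no counts, so the depth behind a value is not known and no interval or floor is given; 3 libraries per group limit the precision.

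The test took log2(TPM + 1) of every gene that reached 1 TPM in 3 libraries or more (15425, all 10 members among them). Members were admitted by their high libraries: Nlrc5 reached 1 TPM in only 4. One limma 3.58.1 model (variances with a trend on the mean, R 4.3.3) was fitted to all libraries, with two-sided tests in 7 comparisons, an F test, and Benjamini-Hochberg adjustment over all genes tested within each. The fit was tested on simulated data. Groups follow the sample titles. The 10 members, the lists, the comparisons and the settings were chosen with earlier results of these data known. Named were all members, for Tap1, B2m and H2-K1 the 5 genes of highest correlation, from each pathway list the called genes or else the 3 most abundant, and Smn1 and Cdkn1a; other marker or listed genes named as examples were chosen after their values were seen. Some genes that this rule would name are not reported here. Settings tried were a pseudocount of 0.1, no filter, a filter at a mean of 5 TPM, median-of-ratios scaling, mitochondrial genes left out, their share as a term, array weights, 2 groups per fit, the replicate number as a block, libraries above 15% mitochondrial share left out, each library left out, and, chosen after seeing the data, protein-coding transcripts only. Promoter windows are RefSeq's on GRCm38.p6. Scripts ran in Python 3.11.15 with pandas 2.3.3, and matplotlib 3.10.9 drew the plots.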

Additional observations from a re-analysis of the deposited data

How the results depend on the processing

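Tap1 kept its call in SMA against WT under the 11 other settings and in the 6 fits without 1 SMA or WT library. Called genes made up 0.115% to 0.648% of all genes in those settings and 0.131% to 0.365% in those fits. No other member gained a call there. The fits that left out a treated library were not read for this comparison. The F test call was lost without a filter, under the stricter filter (mean of 5 TPM) and with the replicate block (0 members each). Over all genes 0.0629%, 0.22% and 0.194% were called there. Members called by the F test ranged from 0 to 1 when each library was left out, beside 0.13% to 0.306% of all genes. Array weights called 3 of the 10, but also 20.9% of all genes. With array weights 2 members were called for SMA+Pifithrin-α and 1 for SMA+SMN-C3 against SMA, where they called 10.2% and 1.5% of all genes; against WT they called 0.59% for SMA+MW150 and 3.95% for SMA+Pifithrin-α. Against WT, 1 member (Tap1) was called for SMA+MW150 at a pseudocount of 0.1 TPM (0.162% of all genes) and without mitochondrial genes (0.179%). The same held without libraries above 15% mitochondrial share (0.276%), with array weights and on protein-coding transcripts (0.147%). For SMA+Pifithrin-α, 1 (Tap1) was called with median-of-ratios scaling, the mitochondrial share as a term, array weights, and without libraries above 15%. Leaving out 1 library gave 0 to 1 in both, beside 0.0589% to 0.143% of all genes for SMA+MW150 and 0.0326% to 0.195% for SMA+Pifithrin-α.

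Medians of the members moved as follows. SMA against WT went to 1.03 at a pseudocount of 0.1. SMA+SMN-C3 against SMA went to -0.47 (array weights), -0.44 (mean filter; also 2 groups per fit), -0.35 (scaling), -0.50 (mitochondrial term), -0.35 (protein-coding transcripts) and -0.64 (pseudocount), and spanned -0.72 to -0.35 with 1 library out. SMA+Pifithrin-α against SMA went to -0.28 with the mitochondrial term. SMA+SMN-C3 against WT went to 0.10 with that term and 0.14 without libraries above 15%, and spanned 0.14 to 0.52. SMA+MW150 against SMA spanned -0.49 to -0.18.

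These uncalled estimates changed sign. With scaling Erap1 was 0.048 for SMA+Pifithrin-α, and H2-D1, Psmb8 and Tapbp were 0.028, 0.080 and 0.0058 for SMA+SMN-C3, all against SMA. With the mitochondrial term H2-D1 and Tapbp were -0.29 and -0.045 in SMA against WT; against SMA, H2-K1 was 0.018 for SMA+MW150, Erap1, Nlrc5 and Tapbp were 0.12, 0.033 and 0.017 for SMA+Pifithrin-α, and H2-D1 and Psmb8 were 0.024 and 0.0090 for SMA+SMN-C3. On protein-coding transcripts Erap1 was 0.17 for SMA+Pifithrin-α and Psmb8 0.051 for SMA+SMN-C3 against SMA, and Psmb9 was -0.41 for SMA+SMN-C3 against WT, which was -0.35 at a pseudocount of 0.1. At that pseudocount Nlrc5 was 0.099 for SMA+Pifithrin-α, and without libraries above 15% Erap1 was 0.12 there.

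With 1 library out, H2-D1 spanned -0.051 to 0.71 in SMA against WT. Against SMA, for SMA+MW150 H2-D1 spanned -0.65 to 0.11, H2-K1 -0.30 to 0.24, Nlrc5 -0.085 to 0.61 and Erap1 -0.092 to 0.35. For SMA+Pifithrin-α Nlrc5 spanned -0.45 to 0.17 and Erap1 -0.45 to 0.12. For SMA+SMN-C3 H2-D1 spanned -0.52 to 0.24 and Psmb8 -0.68 to 0.27. Psmb9 spanned -0.25 to 0.83 for SMA+SMN-C3 against WT. The causes were not tested. Of 341 alternative estimates for the 7 other members in treated groups against WT, 53 changed sign and 288 did not.

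Libraries of the same replicate number did not deviate together more than others did. Their r ran from -0.34 to 0.29 over 30 pairs (median 0.0079), against -0.25 to 0.34 over 60 pairs of unlike number (median 0.0078). With 3 libraries per group this cannot settle whether the numbers pair samples. With the replicate block the F test called 0 members, and no other call of a member changed. Filters at a mean of 5 TPM or on protein-coding transcripts left some low members untested. So did fits of 2 groups, where 8 to 10 members were tested, depending on the comparison. TPM carries no counts, so what depth limits at low levels such as those of Nlrc5 and Erap1 is not known.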
